A study of Homo sapiens with 8 samples.

Results

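The SLC25 gene family encodes the solute carriers of the inner mitochondrial membrane, and its transcripts were followed through arginine starvation in a breast cancer line with and without mitochondrial DNA. The members were the genes with an SLC25A symbol that reached at least 10 read counts in 2 or more libraries. Family genes under other symbols, such as UCP2, UCP3, MTCH1 and MTCH2, were left out. Of 23393 gene symbols, 48 were SLC25A genes and 42 were members. They were arranged by the solute they are known to carry, and 10 of the 42 fell into the aspartate-glutamate, dicarboxylate, ornithine and ADP/ATP groups. The 6 symbols below the minimum were SLC25A2, SLC25A6, SLC25A31, SLC25A47, SLC25A48 and SLC25A52. Just inside it lay SLC25A41, with 20 counts in its highest library, and just outside lay SLC25A6, with 11 counts in 1 library and 0 in the other 7. SLC25A6 encodes an ADP/ATP carrier of the pseudoautosomal region, and of the 18 protein-coding genes of that region in the table, 17 were at 0 in at least 7 libraries. Its low count therefore says nothing about SLC25A6 alone, and the ADP/ATP group was described without it.

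Carriers of this family exchange metabolites, nucleotides, inorganic ions and cofactors between the cytosol and the mitochondrial matrix, often as an obligatory swap of one solute for another. The aspartate-glutamate carriers and the oxoglutarate carrier are the membrane steps of the malate-aspartate shuttle, which passes the electrons of cytosolic NADH to the matrix. ADP/ATP carriers normally export the ATP made by oxidative phosphorylation, and in cells without a respiratory chain they can run the other way and feed ATP into the matrix.

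The cells were MDA-MB-231, a mesenchymal-like triple-negative breast cancer line whose parental form makes little argininosuccinate synthetase and so depends on external arginine. Its ρ0 derivative (p0#27 in the labels) had lost its mitochondrial DNA. Each line was sequenced untreated, in high-glucose DMEM with 10% serum, and after 48 h with arginine deiminase (ADI, 0.3 µg/mL), an enzyme that breaks down the arginine of the medium. This gave 4 groups of 2 libraries, called parental control, parental ADI, ρ0 control and ρ0 ADI. According to the study's methods, the ρ0 line was kept in pyruvate, uridine and ethidium bromide, so the effects of the lost genome, of the single line and of these additives cannot be told apart. No transcript of the mitochondrial genome was analysed here. Nothing in the labels says that the 2 libraries of a group came from separate cultures, so p-values measure the spread between these libraries, which may be technical.

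Total counts were 25259503 to 31022155 per library. All 5 markers present in MDA-MB-231 (VIM, CD44, AXL, ZEB1, TGFBI) were detected in every library, with summed levels of 3360 and 3432 CPM (TMM-normalized read counts scaled to a common library size) in parental control, 2091 and 2099 in parental ADI, 5810 and 6886 in ρ0 control and 4852 and 5006 in ρ0 ADI. VIM, CD44 and AXL make up most of these sums. TGFBI averaged 20.1 CPM in parental control, 1.30 in parental ADI, 232 in ρ0 control and 151 in ρ0 ADI. ZEB1 averaged 96.8, 204, 70.0 and 110 CPM in the same order. The 4 markers the line should lack (ESR1, PGR, CDH1, KRT20) summed to at most 0.24 CPM in parental libraries, 14.2 and 16.0 CPM in ρ0 control and 4.35 and 4.77 CPM in ρ0 ADI. CDH1, the gene of E-cadherin, made up nearly all of that, with at most 2 counts in parental libraries and 104 to 457 in ρ0 libraries. Markers of leukocytes and endothelium (PTPRC, CD3E, CD14, PECAM1, VWF) summed to 0.436 to 6.87 CPM, and CD3E was at 0 throughout. The part of these differences in the carrier results was not tested. The ρ0 control libraries stood apart from each other, with a coefficient of variation beyond counting noise of 25.1%, where the other groups had 1.84% to 5.18%. They differed by more than 0.5 log2 units for 11 of 42 carriers (26.2%), beside 25.2% of all tested genes, and values that rest on them are given for most carriers with and without each (without replicate 1, then without replicate 2). When 1 of them is left out, the other is taken to vary like the libraries of the other groups.

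The 42 carriers together took a small part of the reads. Their share of all counts was 0.321% and 0.323% in parental control and 0.301% and 0.304% in parental ADI. In ρ0 cells it was 0.248% and 0.290% in control and 0.229% and 0.227% in ADI. By this raw share, starved libraries were below the controls of their own line, and ρ0 libraries below parental ones. The share leaves out the TMM factors, which were 1.08 and 1.08 in parental control and 0.967 and 0.961 in parental ADI. These factors differ by more than the parental shares do, so the direction in parental cells depends on the scaling. An exact permutation test of 2 against 2 libraries cannot go below p = 0.333, and none was run. In whole-culture RNA, fewer cells that use a gene and less of its RNA per cell cannot be told apart.

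Per kilobase of transcript, 2 of the 42 carriers stood above the rest in every library. SLC25A3, the phosphate carrier that supplies phosphate for ATP synthesis, had a mean of 489.8 CPM per kilobase in parental control, 431.4 in parental ADI, 282.9 in ρ0 control and 189.2 in ρ0 ADI. SLC25A5, the ADP/ATP carrier of proliferating cells, had 191.0, 126.2, 386.5 and 240.1 CPM per kilobase in the same order. SLC25A3 therefore led in the parental line and SLC25A5 in the ρ0 line, except that SLC25A3 also led in 1 of the ρ0 ADI libraries when median transcript lengths were used. With SLC25A39, a carrier required for mitochondrial glutathione uptake, they made up 48.7% to 59.9% of the length-adjusted total of the 42 carriers in a library.

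Aspartate leaves the matrix through SLC25A12 and SLC25A13, calcium-binding carriers that swap it for cytosolic glutamate. SLC25A12 stood at 37.1 and 36.6 CPM in parental control and at 21.8 and 19.2 in parental ADI. In ρ0 cells it stood at 27.9 and 39.6 CPM in control and at 15.4 and 14.4 in ADI. It was lower in both starved groups than in any untreated library. The log2 change was -0.85 ± 0.17 in parental cells (SE, n = 2 against 2; edgeR's quasi-likelihood test, adjusted p = 0.00292) and -1.18 ± 0.17 in ρ0 cells (adjusted p = 0.00166), the latter -1.41 and -0.89 without ρ0 control replicates 1 and 2. SLC25A13 was at closer levels, with 42.9 and 41.4 CPM in parental control, 38.2 and 38.9 in parental ADI, 49.8 and 51.7 in ρ0 control and 48.3 and 50.6 in ρ0 ADI. Its log2 difference under starvation was -0.13 ± 0.08 in parental and -0.04 ± 0.08 in ρ0 cells (adjusted p = 0.191 and 0.739). The parental value was called under upper-quartile and total-count scaling, at -0.25 and -0.29 (adjusted p = 0.0276 and 0.0155), and without ρ0 control replicate 1, at -0.13 (adjusted p = 0.0436). Its part of the summed length-adjusted level of the pair accordingly went from 52.4% and 51.7% to 62.5% and 65.7% in parental cells. In ρ0 cells that part went from 62.9% and 55.4% to 74.8% and 77.0%. Between starved lines the pair split, with SLC25A12 at -0.46 ± 0.17 in ρ0 against parental cells (adjusted p = 0.0437) and SLC25A13 at 0.36 ± 0.08 (adjusted p = 0.00535). The first of these held without either ρ0 control library and was lost without any 1 of the other 6, at -0.55 to -0.37.

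Among the dicarboxylate carriers, SLC25A10 showed the largest fall of the family in both lines. It exchanges malate or succinate for phosphate. In parental cells it stood at 43.2 and 45.6 CPM in control and at 7.01 and 6.74 in ADI. In ρ0 cells it stood at 43.6 and 65.6 CPM in control and at 11.4 and 10.6 in ADI. The starved libraries lay far under the controls in each line. The log2 change was -2.69 ± 0.20 in parental (adjusted p = 2.81e-05) and -2.31 ± 0.19 in ρ0 cells (adjusted p = 0.000218), and the difference between these responses was 0.38 ± 0.26 (adjusted p = 0.284). The ρ0 change was -2.57 and -1.97 without ρ0 control replicates 1 and 2. The difference of the responses was called without replicate 2, at 0.68 (adjusted p = 0.000115), and not without replicate 1, at 0.12.

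SLC25A11, the oxoglutarate carrier that brings malate in for the shuttle, did not follow it. Its levels were 54.5 and 58.6 CPM in parental control, 50.8 and 52.0 in parental ADI, 50.8 and 80.2 in ρ0 control and 53.0 and 56.8 in ρ0 ADI. The log2 differences were -0.14 ± 0.19 in parental and -0.26 ± 0.19 in ρ0 cells (adjusted p = 0.553 and 0.317). Because its ρ0 control libraries straddled the other groups, its ρ0 difference was -0.55 without replicate 1 (adjusted p = 8.9e-07) and 0.12 without replicate 2 (adjusted p = 0.132).

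SLC25A1 exports citrate, a tricarboxylate, and was listed with the dicarboxylate group. It stood at 70.2 and 76.0 CPM in parental control and 37.2 and 37.9 in parental ADI, a log2 change of -0.96 ± 0.15 (adjusted p = 0.000801). In ρ0 cells it stood at 68.5 and 49.6 CPM in control and 49.2 and 47.7 in ADI, a log2 difference of -0.29 ± 0.15 (adjusted p = 0.155). The 2 responses differed by 0.68 ± 0.21 (adjusted p = 0.0345), but this call held only without either ρ0 control library, at 0.93 and 0.44, and was lost without any 1 of the other 6. SLC25A21, a carrier of oxodicarboxylates, was scarce, with 13 to 27 counts per library. Its log2 difference was 0.03 ± 0.24 in parental and -0.75 ± 0.26 in ρ0 cells (adjusted p = 0.921 and 0.0555). An antisense gene shares its locus, and the strand used in counting is not given in the sources used here.

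Of the ornithine carriers, the basic amino acid carrier SLC25A29 rose in both lines. It stood at 27.1 and 30.8 CPM in parental control and 76.0 and 69.0 in parental ADI, a log2 change of 1.32 ± 0.14 (adjusted p = 0.000129). In ρ0 cells it stood at 30.6 and 23.6 CPM in control and 51.7 and 49.2 in ADI, a log2 change of 0.90 ± 0.14 (adjusted p = 0.00226) that was 1.1 and 0.74 without ρ0 control replicates 1 and 2. Starved libraries were above untreated ones in each line without overlap. SLC25A15, the ornithine-citrulline exchanger of the urea cycle, stood at 25.5 and 24.9 CPM in parental control and 36.8 and 39.5 in parental ADI. The log2 difference was 0.60 ± 0.23 (adjusted p = 0.0544) and passed in 6 of 10 alternative fits. This standard error draws on the spread of all 4 groups, the ρ0 controls among them. Fitted on only the parental groups, the difference was 0.63 (adjusted p = 7.25e-07). The ρ0 levels were 15.6 and 28.0 CPM in control and 22.9 and 21.9 in ADI, so the starved libraries lay between the untreated ones. The direction there depended on which control was kept, at -0.32 without replicate 1 (adjusted p = 0.00235) and 0.53 without replicate 2 (adjusted p = 6.76e-05). Between starved lines both carriers were lower in ρ0 cells, SLC25A15 with a log2 difference of -0.77 ± 0.23 (adjusted p = 0.0216) and SLC25A29 with -0.52 ± 0.14 (adjusted p = 0.0111). The SLC25A15 call was lost without any 1 ADI library, at -0.82 to -0.70, and the SLC25A29 call without parental ADI replicate 1, at -0.45, or either ρ0 ADI library, at -0.53 and -0.46. The paralog SLC25A2 had at most 1 count in a library.

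Both measured ADP/ATP carriers fell in starved parental cells. SLC25A4, the form typical of muscle and heart, stood at 41.6 and 42.7 CPM in parental control and 19.7 and 20.4 in parental ADI, a log2 change of -1.07 ± 0.18 (adjusted p = 0.00136). Among ρ0 libraries it was at 39.5 and 59.9 CPM in control and 44.0 and 47.1 in ADI, a log2 difference of -0.13 ± 0.18 (adjusted p = 0.597). The starved ρ0 libraries fell between their controls, and this difference was -0.40 without ρ0 control replicate 1 and 0.21 without replicate 2 (adjusted p = 5.39e-05 and 0.0153). The responses of the lines differed by 0.94 ± 0.25 (adjusted p = 0.022), a call that held without either ρ0 control library, at 0.67 and 1.25, and was lost without any 1 of the other 6, at 0.88 to 0.97. Starved ρ0 cells had more SLC25A4 than starved parental cells by 1.18 ± 0.18 (adjusted p = 0.000813). No ρ0 control library enters these means, but the standard error and p-value use a spread shared by all 4 groups.

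SLC25A5 differed both between the lines and with starvation. It stood at 238 and 249 CPM in parental control, 159 and 162 in parental ADI, 457 and 528 in ρ0 control and 305 and 307 in ρ0 ADI. Every ρ0 library, starved or not, was above every parental library. The level was higher in ρ0 cells by 1.02 ± 0.09 log2 units in untreated cells (adjusted p = 5.81e-05) and by 0.93 ± 0.09 under starvation (adjusted p = 7.73e-05). Under starvation it fell, with a log2 change of -0.60 ± 0.09 in parental and -0.69 ± 0.09 in ρ0 cells (adjusted p = 0.000724 and 0.00108). Without ρ0 control replicates 1 and 2 the ρ0 change was -0.79 and -0.57 and the untreated difference between the lines 1.12 and 0.96. Per length, SLC25A5 made up 95.2% to 97.6% of SLC25A4 and SLC25A5 together. SLC25A31, the testis form, had at most 3 counts in a library. An antisense gene at the SLC25A5 locus had 17 to 46 counts, and how reads shared with the processed copies of SLC25A5 were placed is not given in the sources used here.

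**Figure D1:**
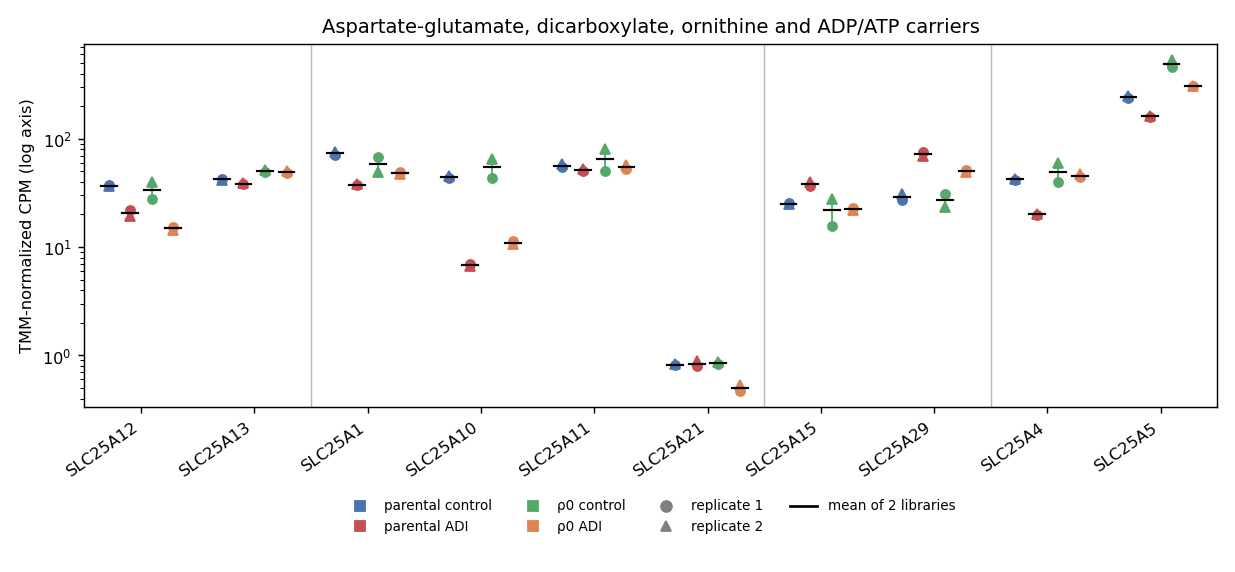
TMM-normalized CPM (log axis) of the 10 carriers of the aspartate-glutamate, dicarboxylate, ornithine and ADP/ATP groups in each library, with circles for replicate 1, triangles for replicate 2 and a black bar for the mean of 2 libraries. SLC25A10 lies at 6.74 to 11.4 CPM in the starved libraries and at 43.2 CPM or more in the others, and SLC25A5 is above 300 CPM in every ρ0 library.

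Enzymes of the malate-aspartate shuttle, in which some of these carriers work, and of the glycerol-phosphate shuttle were read alongside. Of 6 genes, 1 rose and 2 fell in starved parental cells and none rose and 3 fell in starved ρ0 cells, with medians of -0.28 and -0.14 beside -0.07 and -0.02 over all tested genes. Of all genes, 30.4% were called higher and 35.5% lower in parental and 19.2% and 22.1% in ρ0 cells. MDH1, the cytosolic malate dehydrogenase, fell from 224 and 240 CPM to 67.0 and 71.2 CPM in parental cells (log2 -1.75 ± 0.15, adjusted p = 5.07e-05). It went from 239 and 172 CPM to 110 and 110 CPM in ρ0 cells (log2 -0.90 ± 0.15, adjusted p = 0.00264). The aspartate aminotransferases went opposite ways in parental cells, with cytosolic GOT1 at -0.47 ± 0.11 (adjusted p = 0.00527) and mitochondrial GOT2 at 0.46 ± 0.09 (adjusted p = 0.00224). Neither was called in starved ρ0 cells (0.11 ± 0.10 and 0.05 ± 0.09, adjusted p = 0.435 and 0.661). The glycerol-phosphate dehydrogenase genes GPD1 and GPD2 supplied the other 2 falls in ρ0 cells, GPD1 on 4 to 17 counts.

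Across the family, starvation of parental cells raised 15 and lowered 17 of the 42 carriers at an adjusted p under 0.05. Of all 15262 genes tested, 30.4% were called higher and 35.5% lower. With a log2 change beyond 1 as well, 11 carriers rose and 6 fell, beside 12.7% and 22.1% of all genes. The median log2 difference of the carriers was -0.13 and that of all genes -0.07. Of the 32 calls, 21 held without any 1 of the 8 libraries.

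Rises in starved parental cells included carriers of glutamate, nucleotides, folate and acylcarnitines. SLC25A25 rose most. It is a calcium-regulated exchanger of ATP-Mg for phosphate, which sets the size of the matrix nucleotide pool. In parental cells it stood at 20.4 and 23.5 CPM in control and at 153 and 150 in ADI, a log2 change of 2.79 ± 0.23 (adjusted p = 4.37e-05). In the ρ0 line it had 25.8 and 44.0 CPM in control and at 55.7 and 56.5 in ADI, a log2 change of 0.68 ± 0.22 (adjusted p = 0.0387). The ρ0 call held without either ρ0 control library, at 0.35 and 1.13, and was lost without any 1 of the other 6, at 0.68 to 0.71. SLC25A25-AS1, counted as a gene of its own, also rose, by 1.23 ± 0.22 in parental and 1.001 ± 0.22 in ρ0 cells.

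Both glutamate carriers rose in starved parental cells. SLC25A22, which brings glutamate in together with a proton, stood at 71.1 and 72.8 CPM in parental control and 264 and 260 in parental ADI, a log2 change of 1.86 ± 0.19 (adjusted p = 0.000113). The ρ0 libraries had 69.7 and 111 CPM in control and 157 and 153 in ADI, a log2 change of 0.78 ± 0.19 (adjusted p = 0.0135) that was lost without either ρ0 ADI library, at 0.78 and 0.82, and was 0.48 and 1.16 without ρ0 control replicates 1 and 2. SLC25A18, its paralog, rose from 17 and 14 counts to 28 and 28 in parental cells (log2 1.07 ± 0.30, adjusted p = 0.0149), a call lost without either parental control or parental ADI replicate 1, at 0.99 to 1.15.

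SLC25A32, which carries folate and flavin, stood at 76.3 and 72.7 CPM in parental control and 256 and 269 in parental ADI, a log2 change of 1.82 ± 0.14 (adjusted p = 3.53e-05). Its ρ0 levels were 42.7 and 58.5 CPM in control and 92.5 and 88.0 in ADI, a log2 change of 0.83 ± 0.14 (adjusted p = 0.00309) that was 0.63 and 1.09 without ρ0 control replicates 1 and 2. SLC25A33 imports pyrimidine nucleotides for mitochondrial DNA and RNA synthesis. It stood at 5.40 and 6.15 CPM in parental control, 24.2 and 21.6 in parental ADI, 3.92 and 5.21 in ρ0 control and 9.83 and 9.28 in ρ0 ADI. The log2 change was 1.99 ± 0.17 in parental and 1.06 ± 0.17 in ρ0 cells (adjusted p = 4.72e-05 and 0.00254), the latter 0.88 and 1.3 without ρ0 control replicates 1 and 2. Its paralog SLC25A36 did not move in parental cells, with 209 and 192 CPM in control and 201 and 212 in ADI. In ρ0 cells SLC25A36 rose from 85.2 and 69.2 to 130 and 132 CPM (log2 0.76 ± 0.11, adjusted p = 0.00172), or by 0.92 and 0.63 without ρ0 control replicates 1 and 2.

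SLC25A20, the carnitine-acylcarnitine carrier that admits fatty acids for oxidation, reached in starved parental cells the level it already had in untreated ρ0 cells. It stood at 5.82 and 5.73 CPM in parental control and at 15.7 and 16.0 in parental ADI. The ρ0 levels were 16.1 and 16.7 CPM in control and 15.8 and 15.3 in ADI, so all libraries but the parental controls lay close together. The log2 change was 1.45 ± 0.11 in parental cells (adjusted p = 2.89e-05) and the log2 difference -0.07 ± 0.10 in ρ0 cells (adjusted p = 0.596). Further rises in parental cells were SLC25A16 (linked to coenzyme A, 1.26 ± 0.11), SLC25A53 (1.26 ± 0.31), SLC25A43 (1.03 ± 0.09), SLC25A44 (branched-chain amino acids, 0.90 ± 0.08) and SLC25A38 (glycine for heme synthesis, 0.56 ± 0.18), in log2 units. Of these, SLC25A38 lost its call without any 1 parental library (0.53 to 0.60) and SLC25A53 without parental control replicate 2 (1.08 to 1.47 over all 8).

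Promoter sequence was examined because several carriers rose in both lines. RefSeq windows of 250 bases before to 50 after a gene start (GRCh38.p14) were matched by symbol for 35 of the 42 carriers, giving 44 windows. The full cAMP response element, TGACGTCA, searched on both strands, was present in 3 carriers, SLC25A25, SLC25A33 and SLC25A36, all of which rose in starved ρ0 cells. It lay in 6.82% of the carriers' windows and in 1.85% of all 35116 windows. The E-box CACGTG, which does not overlap it, lay in 8 carriers, in 18.2% of their windows and 7.26% of all. A core of the C/EBP-ATF composite site, TGATGNAA, matched only in SLC25A11 (2.27% of the carriers' windows, 3.62% of all). The 35116 windows belong to 27305 gene symbols, where 15262 genes were tested here. Their shares are therefore not matched to expressed genes such as the carriers. These letters describe the windows and show no binding. The 100 bases around each full element follow, with the element and any E-box in capitals, because these are the promoters in which it was found.
SLC25A33: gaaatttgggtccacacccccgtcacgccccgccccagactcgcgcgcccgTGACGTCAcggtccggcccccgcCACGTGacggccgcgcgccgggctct
SLC25A36: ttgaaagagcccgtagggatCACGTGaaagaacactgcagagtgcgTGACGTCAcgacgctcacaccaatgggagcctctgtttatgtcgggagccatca
SLC25A25: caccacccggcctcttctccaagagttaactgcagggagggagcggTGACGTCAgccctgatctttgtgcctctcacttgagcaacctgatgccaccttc
All are plus-strand sequence, at chr1:9539365-9539464, chr3:140941673-140941772 and chr9:128098261-128098360. The element begins 49 bases before the start of SLC25A33, 117 before that of SLC25A36 and 200 before 1 of the starts of SLC25A25. Of the 9 carriers that rose in starved ρ0 cells, 8 had a window and 3 of these held the element. Of the 10 with a window that fell there, none held it. In starved parental cells it was held by 2 of 12 with a window that rose, none of 14 that fell and 1 of 9 that were not called. SLC25A25 and SLC25A33 thus held it and rose in both lines, while SLC25A36 was not called in parental cells. How often the element occurs among all genes called higher or lower was not counted, so these splits tie it to no direction.

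Falls in starved parental cells, beyond those above, ran through iron, glutathione and uncoupling-like carriers. SLC25A40, a paralog of the glutathione carrier SLC25A39, stood at 15.9 and 15.7 CPM in parental control and 5.98 and 4.86 in parental ADI, a log2 change of -1.55 ± 0.13 (adjusted p = 5.45e-05). For ρ0 cells the levels were 18.5 and 17.7 CPM in control and 12.7 and 13.5 in ADI, a log2 change of -0.47 ± 0.13 (adjusted p = 0.0224) that was lost without either ρ0 ADI library, at -0.40 and -0.50. SLC25A39 itself was at 153 and 163 CPM in parental control and 163 and 168 in parental ADI, a log2 difference of 0.07 ± 0.08. In ρ0 cells SLC25A39 went from 182 and 195 to 156 and 157 CPM (log2 -0.27 ± 0.08, adjusted p = 0.0254). That fall passed in 7 of 10 alternative fits and ran from -0.32 to -0.21 without 1 library. Among uncoupling-like carriers, SLC25A27 went from 7.11 and 7.64 to 3.21 and 2.37 CPM (log2 -1.40 ± 0.29, adjusted p = 0.00352) in parental cells. SLC25A14 and SLC25A30 of the same group fell by 0.61 and 0.45 on the log2 scale, the first a call that held only without a ρ0 control library, at -0.61 and -0.58.

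Mitoferrin SLC25A37, which delivers iron for heme and iron-sulfur clusters, fell from 449 and 426 to 259 and 259 CPM in parental cells (log2 -0.75 ± 0.11, adjusted p = 0.000548). Its ρ0 levels were 166 and 134 CPM in control and 171 and 170 in ADI, under every parental library. The broadly expressed mitoferrin SLC25A28 changed by -0.52 ± 0.13 in parental cells and was at -0.06 ± 0.13 in ρ0 cells (adjusted p = 0.00888 and 0.748), the first lost without parental ADI replicate 2. SLC25A23, a further ATP-Mg exchanger, fell from 148 and 148 to 76.9 and 74.6 CPM in parental cells (log2 -0.97 ± 0.18, adjusted p = 0.00216), opposite to SLC25A25.

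In ρ0 cells starvation raised 9 and lowered 11 of 42 carriers, beside 19.2% and 22.1% of all tested genes. Beyond 1 log2 unit, 1 rose and 4 fell (4.22% and 8.19% of all genes). The median was -0.11 against -0.02 over all genes, and the median absolute log2 difference 0.38 against 0.41. Of the 20 calls, 10 held without any 1 of the 8 libraries. Without ρ0 control replicate 1 the carriers called lower numbered 20, and without either ρ0 ADI library 5 rose and 5 fell. Beside SLC25A10, SLC25A12 and SLC25A34, the fall beyond 1 log2 unit was that of SLC25A42, a coenzyme A carrier, from 12.5 and 9.74 to 3.99 and 4.18 CPM (log2 -1.44 ± 0.17, adjusted p = 0.000767), at -1.26 and -1.60 without ρ0 control replicates 1 and 2. SLC25A34 had 7 to 34 counts in a library, and its call was lost without either ρ0 ADI library. SLC25A3 fell in ρ0 cells from 415 and 534 to 325 and 310 CPM (log2 -0.58 ± 0.12, adjusted p = 0.00754), at -0.75 and -0.38 without ρ0 control replicates 1 and 2, a call lost without either ρ0 ADI library, at -0.60 and -0.53. SLC25A46, an outer-membrane member linked to mitochondrial shape, fell by 0.65 on the log2 scale (SE 0.10, adjusted p = 0.00199), at -0.70 and -0.58 without the same replicates.

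Put side by side, 6 carriers rose in both lines (SLC25A22, SLC25A25, SLC25A29, SLC25A32, SLC25A33 and SLC25A43) and 8 fell in both (SLC25A5, SLC25A10, SLC25A12, SLC25A34, SLC25A35, SLC25A40, SLC25A42 and SLC25A46). Another 8 were called higher and 8 lower in parental cells alone, 2 and 2 in ρ0 cells alone, and 6 in neither. Of all tested genes, 13.1% were called higher and 14.6% lower in both lines, 15.6% higher and 19% lower in parental cells alone, 4.12% and 5.86% in ρ0 cells alone and 24.1% in neither. The parental fall of SLC25A46 was small (log2 -0.28, adjusted p = 0.0378). It passed in 8 of 10 alternative fits and ran from -0.39 to -0.16 without 1 library. The ρ0 fall of SLC25A35 (log2 -0.85, adjusted p = 0.0115) also passed in 8 of 10 and ran from -1.03 to -0.63. Calls in opposite directions (1.65% and 1.99% of all genes) were made for 2 carriers, a pair picked out once the values were known. SLC25A51, the mitochondrial NAD+ carrier, went from 15.3 and 16.1 to 10.4 and 9.61 CPM in parental cells and from 13.3 and 10.1 to 17.1 and 15.5 CPM in ρ0 cells (log2 -0.65 ± 0.15 and 0.48 ± 0.15, adjusted p = 0.0067 and 0.0393). SLC25A44 went from 52.5 and 49.1 to 94.6 and 95.0 CPM in parental cells and from 55.4 and 60.5 to 49.2 and 47.3 CPM in ρ0 cells (log2 0.90 ± 0.08 and -0.26 ± 0.08, adjusted p = 7.03e-05 and 0.0373). The ρ0 call of each held only without a ρ0 control library, at 0.69 and 0.31 for SLC25A51 and -0.33 and -0.19 for SLC25A44. The parental call of SLC25A51 was lost without parental ADI replicate 2, at -0.60.

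**Figure D2:**
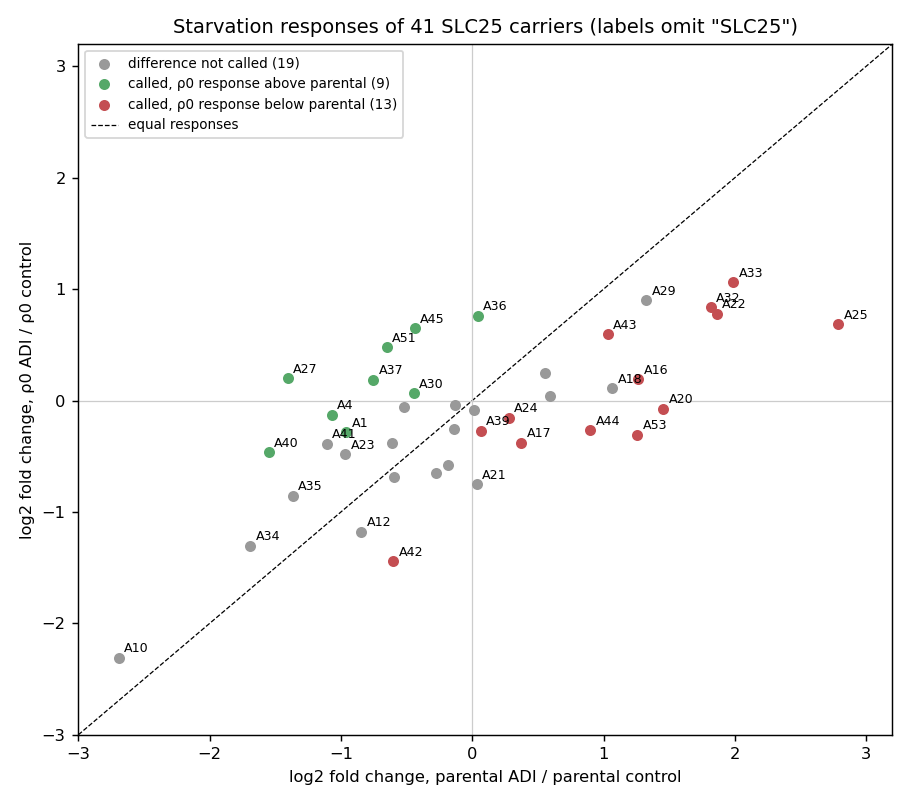
Log2 fold change under starvation in parental cells (horizontal axis) and in ρ0 cells (vertical axis) for 41 of the carriers, coloured by the call on the difference of the responses, with a dashed line where the responses would be equal. Most of the 13 red points, where the ρ0 response is below the parental one, lie right of 0, and the 9 green points lie above the line.

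Whether the lines responded differently was tested directly as the difference of the 2 responses, which uses all 8 libraries. The ρ0 response was above the parental one for 9 carriers and below it for 13, beside 21.6% and 18.8% of all genes. The median difference was -0.32 for the carriers and 0.02 for all genes. In 17 of the 22 the parental response was the larger in size, and in 11 of the 22 the responses had opposite signs. Of the 6167 genes with a called difference, these held for 80.2% and 41.7%. Outside the 4 substrate groups, the most negative differences were those of SLC25A25 (-2.10 ± 0.31, adjusted p = 0.00234), SLC25A53 (-1.56 ± 0.47, adjusted p = 0.0343), SLC25A20 (-1.53 ± 0.15, adjusted p = 0.000544), SLC25A44 (-1.16 ± 0.12, adjusted p = 0.000623) and SLC25A22 (-1.08 ± 0.26, adjusted p = 0.0152). At the other end, with SLC25A4 left out as a member of those groups, were SLC25A27 (1.60 ± 0.39, adjusted p = 0.0158), SLC25A51 (1.13 ± 0.22, adjusted p = 0.00622), SLC25A45 (1.09 ± 0.27, adjusted p = 0.0175), SLC25A40 (1.08 ± 0.18, adjusted p = 0.00403) and SLC25A37 (0.94 ± 0.15, adjusted p = 0.00323). Of the 22 calls, 8 held without any 1 library. Among the 10 just named these were not SLC25A22, SLC25A27, SLC25A45 and SLC25A53. Without any 1 library the difference ran from -1.38 to -0.74 for SLC25A22, 1.22 to 2.08 for SLC25A27, 0.91 to 1.28 for SLC25A45 and -2.07 to -1.15 for SLC25A53. SLC25A22 kept its call only without a ρ0 control library, while SLC25A27 lost it without either parental control, parental ADI replicate 2 or either ρ0 ADI library. SLC25A45 lost it without parental control replicate 1, parental ADI replicate 2 or either ρ0 ADI library, and SLC25A53 without any parental library or ρ0 ADI replicate 2. The number called lower was 21 without ρ0 control replicate 1 and 5 without parental ADI replicate 1 or ρ0 ADI replicate 2.

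**Figure D3:**
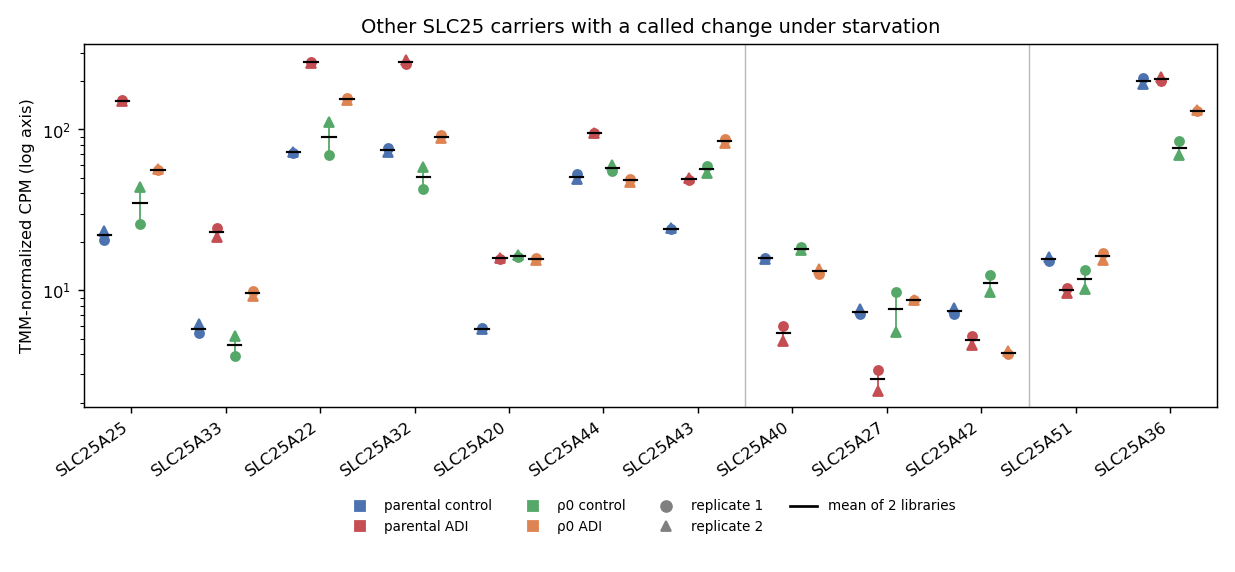
TMM-normalized CPM (log axis) of 12 other carriers in each library, with circles for replicate 1, triangles for replicate 2 and a black bar for the mean of 2 libraries. SLC25A25 is at 149.6 and 153 CPM in parental ADI and 56.5 CPM at most in ρ0 ADI, and SLC25A20 is low only in the parental controls, at 5.73 and 5.82 CPM.

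Between the lines before starvation, 15 carriers were higher and 7 lower in ρ0 than in parental control, beside 30.5% and 31.8% of all genes. Beyond 1 log2 unit they were 7 and 4, beside 13.6% and 17.3%. The carriers' median was 0.20 against -0.01, with a median absolute difference of 0.39 against 0.62 over all genes. Higher in ρ0 cells were SLC25A20 (1.503 ± 0.11, adjusted p = 2.19e-05), SLC25A43 (1.23 ± 0.09, adjusted p = 2.24e-05), SLC25A14 (1.18 ± 0.20, adjusted p = 0.00146), SLC25A24 (1.16 ± 0.09, adjusted p = 3.21e-05) and SLC25A46 (1.07 ± 0.10, adjusted p = 7.22e-05), in log2 units. Without ρ0 control replicates 1 and 2, SLC25A14 was at 1.38 and 0.99 and SLC25A24 at 1.23 and 1.13. SLC25A24, an ATP-Mg exchanger, stood at 94.8 and 86.3 CPM in parental control and 191 and 213 in ρ0 control.

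Lower in ρ0 cells were the ATP-Mg exchanger SLC25A23, with 148 and 148 CPM in parental control and 55.2 and 35.3 in ρ0 control, at -1.71 ± 0.18 (adjusted p = 0.000151), and SLC25A37 at -1.55 ± 0.11 (adjusted p = 2.07e-05). SLC25A36 was at -1.38 ± 0.11 (adjusted p = 3.96e-05), SLC25A3 at -0.79 ± 0.12 (adjusted p = 0.000873) and SLC25A32 at -0.56 ± 0.14 (adjusted p = 0.0096). The SLC25A32 call was lost without parental control replicate 1, at -0.52. Without ρ0 control replicates 1 and 2 the values were -2.07 and -1.37 for SLC25A23, -1.71 and -1.35 for SLC25A37, -1.54 and -1.18 for SLC25A36, -0.62 and -0.93 for SLC25A3 and -0.35 and -0.75 for SLC25A32. SLC25A41, which lies beside SLC25A23 in the RefSeq annotation and overlaps it, had 15 and 20 counts in parental control and 1 and 2 in ρ0 control. Taken at 3 counts per library, it was at least 5.71-fold lower in ρ0 control, and reads from the overlap cannot be assigned to either gene. Of the 4 substrate groups, SLC25A13 and SLC25A5 were called, and the SLC25A13 difference of 0.27 ± 0.08 (adjusted p = 0.0209) was lost without any 1 parental library, at 0.24 to 0.30. Without ρ0 control replicates 1 and 2 the carriers called lower numbered 11 and 12, and without parental control replicate 1 those called higher numbered 8.

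Between the starved lines 14 carriers were higher and 18 lower in ρ0 cells, beside 32.9% and 33.5% of all genes, and beyond 1 log2 unit 6 and 9, beside 18.7% and 16.8%. Medians were -0.05 for the carriers and -0.01 for all genes. Outside the 4 substrate groups, the higher ones were led by SLC25A45 (1.72 ± 0.20, adjusted p = 0.00018), SLC25A27 (1.65 ± 0.29, adjusted p = 0.00159), SLC25A14 (1.41 ± 0.21, adjusted p = 0.00066), SLC25A40 (1.28 ± 0.13, adjusted p = 0.000119) and SLC25A43 (0.79 ± 0.09, adjusted p = 0.00014) among those with a mean of at least 5 CPM. Among the lower ones were SLC25A32 (-1.54 ± 0.14, adjusted p = 5.8e-05), SLC25A25 (-1.43 ± 0.22, adjusted p = 0.000742), SLC25A33 (-1.26 ± 0.16, adjusted p = 0.000315) and SLC25A23 (-1.23 ± 0.18, adjusted p = 0.000717). Of the 32 calls, 24 held without any 1 library. The line comparisons share their libraries with the starvation comparisons and are not independent of them.

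**Figure D4:**
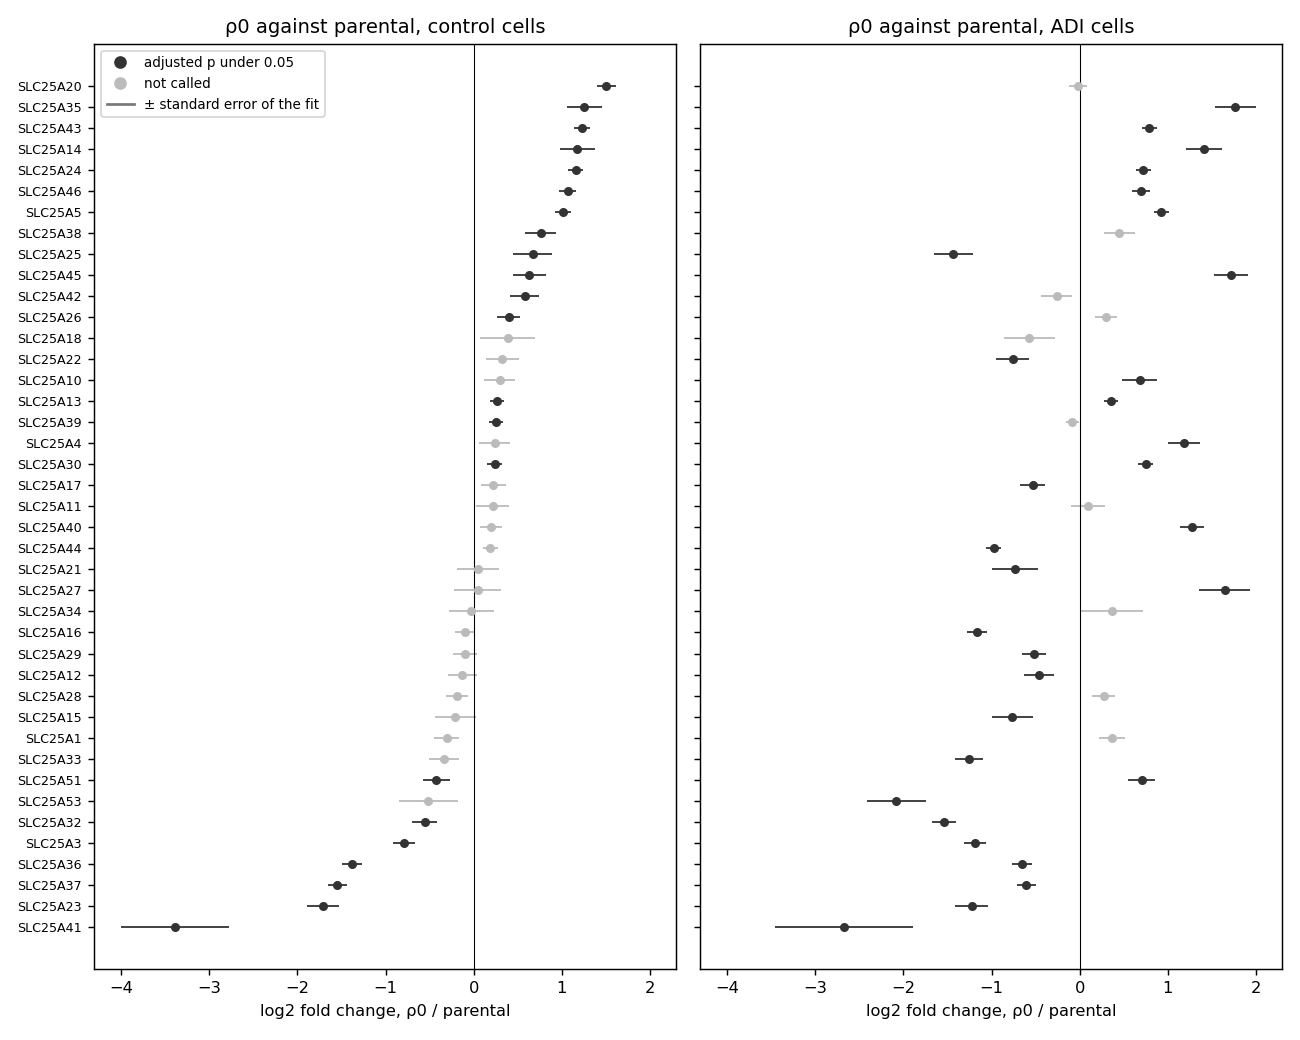
Log2 fold change of ρ0 against parental cells for 41 of the carriers, untreated on the left and under starvation on the right, with points ordered by the untreated value, bars for the standard error of the fit and dark points for an adjusted p under 0.05. SLC25A20 is at 1.503 on the left and -0.02 on the right, and SLC25A25 goes from 0.67 to -1.43.

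Mitochondrial transport genes without an SLC25A symbol gave a frame for the carriers. Of 17 such genes (pyruvate carrier subunits, VDAC channels, sideroflexins, uncoupling proteins, calcium uniporter and others), 6 rose and 5 fell in starved parental cells, and 2 rose and 12 fell in starved ρ0 cells. UCP2, UCP3, MTCH1 and MTCH2 among them belong to the SLC25 family, so this frame is not wholly outside it. All tested genes were called at 30.4% higher and 35.5% lower in parental and 19.2% and 22.1% in ρ0 cells. The medians of the 17 were 0.11 and -0.57, those of the carriers -0.13 and -0.11, and those of all genes -0.07 and -0.02. The outer-membrane channels moved unequally, with VDAC2 at 1.002 ± 0.12 and VDAC1 at -0.84 ± 0.12 in parental cells and 0.63 ± 0.12 and -0.74 ± 0.12 in ρ0 cells. The 2 rises in ρ0 cells were VDAC2 and PPIF, the cyclophilin of the permeability transition pore, at 0.70 ± 0.18.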

How the data were processed

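RNA of 8 libraries was sequenced, 2 per group. The authors deposited 1 table of whole-number read counts per gene symbol, used as given, and the submitters' processing notes name hg19, Bowtie and Partek without role or version. Strand, read length and the counting rule are not given in the sources used here. No coordinate of hg19 is printed. Groups came from the sample titles.

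Counts were normalized by TMM and fitted in edgeR 4.0.16 (R 4.3.3) with 1 mean per group over all 8 libraries, after filterByExpr, which kept 15262 genes and all 42 carriers. The quasi-likelihood test was two-sided, and p-values were adjusted by Benjamini-Hochberg over all tested genes and called at 0.05. CPM are TMM-normalized. Each standard error was taken as the absolute log2 change over the root of the F statistic. The spread of a gene was estimated over all 4 groups together, so every comparison draws on the ρ0 controls for it. Depth and 2 libraries a group limit precision, and counting error is only part of it. The members and gene lists were chosen with earlier results of these data known. Named with values were the 4 substrate groups and, per comparison, the 5 largest rises and falls among the other called carriers whose mean reached 5 CPM and whose groups did not overlap (called only, for the difference of responses). Further carriers were named to fill out solute groups, with their values known. Length-adjusted levels used the GENCODE v29 principal transcript. Alternatives used limma 3.58.1, DESeq2 1.42.0 and the settings listed under the processing part. The pipeline was tested on simulated counts. Correlations of same-numbered libraries' deviations over all tested genes ran from -0.10 to 0.06, and the main fit used no pairing. A batch acting on some genes need not show in such correlations. Single values of 1 carrier are not reported here, though it is counted among the 42.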

Additional observations from a re-analysis of the deposited data

Results flagged for a closer look

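In the 4 substrate groups and among the largest rises and falls of any comparison, 19 carriers had starvation responses that differed between the lines. The test was edgeR's quasi-likelihood test of the difference (ρ0 minus parental, log2, adjusted p under 0.05). The largest called differences were among those chosen, so this count is not a rate. Below 0 were SLC25A25 (-2.10), SLC25A53 (-1.56), SLC25A20 (-1.53), SLC25A44 (-1.16), SLC25A22 (-1.08), SLC25A32 (-0.98), SLC25A33 (-0.92), SLC25A42 (-0.84), SLC25A43 (-0.44), SLC25A24 (-0.43) and SLC25A39 (-0.34). Above 0 were SLC25A27 (1.60), SLC25A51 (1.13), SLC25A45 (1.09), SLC25A40 (1.08), SLC25A37 (0.94), SLC25A4 (0.94), SLC25A36 (0.72) and SLC25A1 (0.68). Outside those, SLC25A16 (-1.07), SLC25A17 (-0.75) and SLC25A30 (0.51) were also called. Of these 22 calls, 8 held without any 1 library. Among all tested genes, 21.6% were called above 0 and 18.8% below. No group had the 4 libraries needed to look for single outlying values.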

How the results depend on the processing

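The spread between ρ0 control libraries, 2 libraries per group and a single ρ0 line set the limits. Of 1980 alternative values for 100 carrier results, 1773 kept direction and side of the threshold, 149 lost the call, 41 gained it and 14 changed sign with no call on either side. Another 3 reversed with a call: SLC25A15 in ρ0 starvation (lowest -0.32, highest 0.53 without 1 library), SLC25A4 in ρ0 starvation (-0.40 to 0.21) and SLC25A11 in the difference of responses (-0.41 to 0.22). The cause was not tested. The alternatives include stricter cuts on the main fit itself (a log2 change beyond 1, an adjusted p under 0.01). Such cuts can lose calls but cannot gain them or change a sign.

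Counts of carriers beyond a log2 change of 1 (higher, lower) were 11 and 6 for parental starvation, 1 and 4 for ρ0 starvation, 4 and 6 for the difference, 7 and 4 for untreated lines and 6 and 9 for starved lines. At an adjusted p under 0.01 ρ0 starvation gave 5 and 6, the difference 4 and 5, and untreated lines 8 higher. Fitted on only the groups compared, ρ0 starvation gave 5 and 6 and untreated lines 8 higher. limma-voom with group weights gave 6 lower in ρ0 starvation and 9 higher in untreated lines. Total-count and upper-quartile scaling moved the median of all genes in parental starvation by -0.161 and -0.119. The replicate block gave 15 and 17, 9 and 10, 9 and 12, 14 and 8, and 15 and 16 carriers in the same order. By the labels, same-numbered samples share only a number.

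Without 1 library at a time, carriers called higher numbered 9 to 17 and lower 13 to 22 in parental starvation, 5 to 13 and 5 to 20 in ρ0 starvation, 3 to 12 and 5 to 21 for the difference, 8 to 21 and 5 to 12 for untreated lines and 13 to 18 and 11 to 18 for starved lines.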
